A study of Homo sapiens with 8 samples.

Results

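The olfactory receptor genes of chromosome 11 were taken as the protein-coding genes of GENCODE release 44 on that chromosome whose symbol is OR followed by a number, letters and a number, such as OR4C3. They numbered 172 of the 19962 protein-coding genes measured. No measured value entered this rule, although earlier results of these data were known when it was chosen. RefSeq lists 165 of them as protein-coding and 7 as pseudogenes, among them OR5AL1 and OR4C45. They were followed in SUM159, an established triple-negative breast cancer line. All cells carried a lentiviral vector for dCas9-KRAB, a Cas9 without nuclease activity fused to a repressor domain. The All gRNA cells also received 4 guide RNAs against the ZEB1 promoter, and the No gRNA cells carried the vector without a targeting guide. Native chromatin immunoprecipitation gave 2 libraries per group for trimethylated lysine 9 of histone H3 (H3K9me3) and 2 for trimethylated lysine 4 (H3K4me3), 8 in all. The values below are the share of a window covered by deposited peaks, in percent. Around the annotated start of transcription (TSS), the window reached 10 kb to either side for H3K9me3 and 1 kb for H3K4me3. Unless another order is named, 4 values follow the order All gRNA replicates 1 and 2, then No gRNA replicates 1 and 2.

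Olfactory receptors are odorant-binding G protein-coupled receptors of the nasal sensory neurons, and each such neuron expresses a single allele of a single receptor gene. Most of these genes are silent in other tissues, although some receptors are expressed outside the nose. In mouse olfactory neurons the receptors that are not chosen lie in compact chromatin marked by H3K9me3, the mark that KRAB also recruits, whereas H3K4me3 marks active promoters. The receptors fall into class I, related to those of fish (families OR51, OR52 and OR56 here), and class II, which holds the families of land vertebrates. A receptor is usually encoded by 1 exon, and the genes lie in tandem arrays with many pseudogenes.

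The promoters of these genes are poor in the dinucleotide CpG, and 4 of them, chosen by their marks, are printed here. RefSeq (GRCh38.p14) gave a promoter for 133 of the 172 genes. Each sequence below is the 250 bases upstream of the start, 5′ to 3′ on the strand of the gene, with CpG in capitals. OR4C5 (chr11:48366466-48366715, minus strand) had the highest H3K9me3 of its cluster, OR8U1 (chr11:56375374-56375623, plus strand) the lowest of its own, OR9Q2 (chr11:58188820-58189069, plus strand) the largest H3K9me3 difference between the groups, and OR52N2 (chr11:5808674-5808923, plus strand) the most significant H3K4me3 peaks.
OR4C5: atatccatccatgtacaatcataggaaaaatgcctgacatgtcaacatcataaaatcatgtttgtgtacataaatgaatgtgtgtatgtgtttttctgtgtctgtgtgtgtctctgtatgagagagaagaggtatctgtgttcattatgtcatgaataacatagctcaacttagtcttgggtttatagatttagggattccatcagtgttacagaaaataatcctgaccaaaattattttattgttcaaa
OR8U1: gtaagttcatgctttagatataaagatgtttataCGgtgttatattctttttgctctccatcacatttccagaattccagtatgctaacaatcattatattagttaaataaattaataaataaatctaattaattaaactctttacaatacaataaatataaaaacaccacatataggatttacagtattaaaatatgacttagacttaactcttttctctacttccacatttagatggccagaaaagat
OR9Q2: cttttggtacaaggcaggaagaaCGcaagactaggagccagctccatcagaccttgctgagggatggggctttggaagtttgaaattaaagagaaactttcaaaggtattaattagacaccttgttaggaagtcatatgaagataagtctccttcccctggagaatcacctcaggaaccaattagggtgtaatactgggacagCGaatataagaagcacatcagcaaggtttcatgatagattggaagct
OR52N2: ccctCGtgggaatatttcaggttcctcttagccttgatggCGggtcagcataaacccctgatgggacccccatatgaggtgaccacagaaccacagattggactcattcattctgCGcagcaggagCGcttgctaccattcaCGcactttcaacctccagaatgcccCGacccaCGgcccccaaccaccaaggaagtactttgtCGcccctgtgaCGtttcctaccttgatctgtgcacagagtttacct

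The OR52N2 promoter held 9 CpG, the highest number among the 133, and the median of the 133 was 1 against 17 over all 15315 promoters matched. In 48 of the 133 there was none, as in OR4C5. The GC content was 54% at OR52N2, 42.8% at OR9Q2, 32.8% at OR4C5 and 25.2% at OR8U1. Over the full 300-base promoters, searched on both strands, TATAAA was found in 35.3% of the receptor promoters and 9.74% of all, and TAATTA, the core that LHX2 and other homeodomain factors bind, in 23.3% and 3.23%. CCCNNGGG, a core of the sites of EBF factors, was found in 7.52% and 21.7%. These are matches of letters in an AT-rich or GC-rich window, not sites.

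Depth is unknown, since peak lists hold no read counts. The H3K9me3 lists held 284054 to 370024 peaks on the main chromosomes and covered 723 to 770 Mb, with longer peaks in the All gRNA libraries (mean 2604 and 2525 bases) than in the No gRNA libraries (1983 and 1957 bases). The H3K4me3 lists held 390316 to 499458 peaks and covered 623 to 933 Mb. H3K9me3 at the targeted gene ZEB1 followed the labels, with 79.4% and 82.0% of its window covered with the guides and only 4.57% and 1.33% without them. H3K4me3 at ZEB1 did not. Under either label its window was at 0% in replicate 1 and at 100% in replicate 2. The deposited file names also give 2 of these 4 libraries the other condition, namely replicate 2 of those labelled All gRNA and replicate 1 of those labelled No gRNA. The labels were kept, so no direction of H3K4me3 between the groups is firm. Of the other 9 genes on the check list, VIM, FN1 and SNAI2, genes of mesenchymal cells such as SUM159, and GAPDH, RPLP0 and TBP were covered by H3K4me3 at 100% in each of the 4 libraries. The mesenchymal cadherin CDH2 was at 100%, 85.0%, 82.6% and 100%, ACTB at 100%, 100%, 75.1% and 100%, and EEF1A1 at 46.7%, 100%, 33.1% and 47.7%.

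With all deposited peaks, the receptor genes carried more H3K9me3 than protein-coding promoters as a whole in each of the 4 libraries. Their median shares were 22.8%, 26.3%, 16.8% and 16.9%, and those of all protein-coding promoters 3.59%, 4.78%, 6.63% and 7.62%. The median of the receptors lay 15 points above that of all promoters on average over the libraries. Of the 172 genes, 153 (89.0%) had some H3K9me3 in every library, against 50.7% of all promoters, 43 (25%) had a mean share of at least 50%, against 7.18% of all promoters, and 41 were below 10%. The size of these differences, and at the strictest threshold their direction, depended on weak peaks. With only peaks at q ≤ 0.05, the median was 0 for the receptors and for all promoters, since most windows held no such peak. The means were still higher at the receptors, at 9.16%, 8.35%, 2.61% and 10.5% against 2.76%, 2.66%, 1.07% and 3.18%. Such a peak lay in at least 1 library at 74 of the 172 genes (43.0%), against 14.3% of all promoters. At q ≤ 0.01 the means were 0.178%, 0.462%, 0.102% and 2.87% against 1.08%, 1.05%, 0.0959% and 1.41%. The receptors thus lay below all promoters in both All gRNA libraries. They lay above them in both No gRNA libraries, though barely in replicate 1. With all deposited peaks, the 227 receptor genes of other autosomes also had higher medians than all promoters in every library. Averaged over the libraries of a group, their median was 18.9% in All gRNA and 18.6% in No gRNA. For the chromosome 11 receptors it was 24.5% and 16.9%, higher in both All gRNA libraries but lower in both No gRNA libraries. The mean shares, given below, were higher on chromosome 11 in every library.

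H3K9me3 followed position along the chromosome. Genes whose starts lay more than 1 Mb apart were put in different clusters, which gave 7. Cluster 1, on the short arm, holds 67 genes from OR52B4 to OR10A3, with starts between chr11:4368386 and chr11:7941708. Its mean shares were low, at 17.2%, 19.3%, 11.6% and 12.5%. Clusters 2 (7 genes, OR4B1 to OR4A47) and 3 (3 genes, OR4C13 to OR4C45), next to the centromere, had the highest means of the clusters. They were 77.8%, 81.6%, 66.7% and 70.2% in cluster 2 and 84.5%, 83.1%, 75.6% and 69.3% in cluster 3. Cluster 4, across the centromere, holds 51 genes from OR4C46 to OR5AK2 and stood at 53.9%, 55.7%, 46.6% and 44.5%. Cluster 5 (21 genes, OR9Q1 to OR10V1) stood at 27.9%, 29.7%, 22.5% and 19.6%, and cluster 7 (22 genes, OR6X1 to OR8A1), on the distal long arm, at 22.7%, 19.3%, 12.0% and 12.5%. OR2AT4, a receptor also described in skin, lies alone as cluster 6 at 26.2%, 23.7%, 29.6% and 28.4%. The order of the clusters was shared by the libraries, in that clusters 2, 3 and 4 were above the others in all 4.

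Class II receptors had more H3K9me3 than class I receptors across the chromosome, but not within cluster 1. The 55 class I genes are all in cluster 1 and had a mean share of 20.97% ± 1.74 (SD, n = 2 libraries) in All gRNA and 14.0% ± 0.809 in No gRNA. The 117 class II genes stood at 40.7% ± 0.472 and 32.4% ± 0.951. Within cluster 1 the order turned, since its 12 class II genes had means of 5.66%, 5.81%, 3.02% and 2.97%, below the class I means of 19.7%, 22.2%, 13.5% and 14.6% in every library. Of the families with 20 or more genes, OR4 had the highest level, at 60.9% in All gRNA and 52% in No gRNA. OR51 had 18.8% and 11.9%, and OR52 19.1% and 12.3%.

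Single genes showed how abrupt the pattern was. In cluster 4, OR4A5 was at 88.3%, 89.6%, 90.6% and 89.4%, the highest mean of that cluster, and OR8U1 at 5.52%, 12.1%, 5.74% and 1.83%, the lowest. The next gene after OR8U1, OR5AL1, starts 37072 bases away and was at 69.4%, 69.0%, 57.3% and 49.8%. The libraries of the 2 genes did not overlap. Steps of at least 40 points between neighbours occurred at 4 of the 165 neighbouring pairs, a description chosen after the values were seen, and the median step was 6.20 points. OR56A3 in cluster 1 was another, at 82.2%, 63.2%, 57.3% and 70.1%, after OR52E5 at 21.7%, 12.9%, 8.94% and 2.85%. The start of OR56A3 lies 132 bases from that of TRIM5, which is not a receptor gene. In the other clusters of at least 5 genes, the highest and lowest means belonged to OR4C5 (89.3%, 90.2%, 77.8% and 81.9%) and OR4X2 (68.3%, 73.8%, 46.8% and 50.9%) in cluster 2, OR6Q1 (74.0%, 69.1%, 45.2% and 53.3%) and OR5B21 (0.750%, 3.93%, 9.11% and 5.03%) in cluster 5, and OR10S1 (52.6%, 45.8%, 27.4% and 30.6%) and OR8G5 (3.61%, 6.66%, 0% and 0%) in cluster 7. The lowest of cluster 1 was OR5P2, with 2.36% in All gRNA replicate 1 and 0% in the other libraries.

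Windows of close neighbours overlap, so genes are not independent. In 63 of the 165 pairs the 10 kb windows overlapped, and the 172 windows merge into 109. Across the 172 genes the H3K9me3 shares of any 2 libraries correlated with r of 0.919 to 0.937, and across all promoters with 0.912 to 0.947. The mean share was almost unrelated to the GC content of the window (r = 0.073 over 172 genes, which share libraries and windows). The receptor windows had a median GC of 37.3% against 45.2% for all promoters.

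Within the genes, H3K9me3 peaks lay more often over the coding exon than beside it. In 171 of the 172 genes the coding sequence is a single exon, of 906 to 1005 bases. Peaks covered 52.8%, 56.4%, 44.6% and 47.9% of these exons on average, but 29.1%, 29.5%, 17.9% and 16% of the upstream flank and 35.2%, 27.7%, 22.9% and 22.3% of the downstream flank, each as long as the exon. The exon exceeded the mean of its flanks by 25.3 ± 3.72 points (SD over the 4 libraries). It did so in every library for 40 genes and was below in every library for 1. Of those 40, 25 were among the 50 such genes of cluster 4, and none among the 22 of cluster 7. The mean excess was nevertheless 23.7 points in cluster 7, with 17.9, 31.1, 17.97 and 27.7 in the 4 libraries, and 34.3 in cluster 4. Chromosome 11 receptor pseudogenes of the same length, 116 in number, had the same kind of excess, with 61.6%, 66.3%, 51.3% and 59.0% over the gene and 38.9%, 41.0%, 32.7% and 31.4% upstream. In the 4 libraries the excess was 20.6, 27.8, 24.2 and 28.8 points for the chromosome 11 receptors and 15.1, 16.6, 16.4 and 19.8 for 224 receptor genes of other autosomes. It was 4.83, 5.46, 8.20 and 9.13 points in 132 other genes with 1 coding exon of like length. Using only peaks at q ≤ 0.05 the receptor excess was 3.01, 3.30, 1.89 and 6.61 points. Median GC was 45.8% in the receptor exons and 35.2% and 34.8% in the flanks, and H3K4me3 peaks showed an excess of 4.41, 5.14, 7.88 and 5.62 points over the same exons. The part of GC content in the excess was not tested. Receptor exons resemble each other, and how reads that match several of them were placed is not given in the sources used here, so values over these exons are uncertain. The coding exon was examined after a profile around the starts had been seen.

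The comparison of All gRNA with No gRNA asks whether the mark changed away from ZEB1. H3K9me3 at the receptor genes was higher in both All gRNA libraries, with means over the 172 genes of 33.8% and 35%, than in both No gRNA libraries, with 26.8% and 26.3%. The difference was 7.85 points, with group means of 34.4% ± 0.879 and 26.6% ± 0.388 (SD, n = 2). With 6 possible labellings of the libraries, the two-sided exact permutation test gave p = 0.33, the smallest this design allows. Over all protein-coding promoters the difference was −1.01 points (p = 0.67, exact permutation), with library means of 12.9%, 14.0%, 13.8% and 15.1%. The group mean was higher in All gRNA at 147 of the 172 receptors (85.5%) and at 32.2% of all promoters. The libraries did not overlap, with All gRNA above, at 87 receptors (50.6%), where 11% of all promoters were so, and with All gRNA below at 7 (4.07%), where 24.4% were.

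No chromosome 11 receptor passed the call, a gap of at least 25 points between the lowest library of one group and the highest of the other. It was passed by 0.18% of all promoters with All gRNA higher and 0.0351% with All gRNA lower. Of the 227 receptor genes of other autosomes, 2 (0.881%) passed it with All gRNA higher and 0 with All gRNA lower. A gap of 10 points was passed by 23 receptors (13.4%) with All gRNA higher, against 1.85% of all promoters, and by OR10V1 alone with All gRNA lower, against 1.72%. Of the 23 chromosome 11 genes, 19 were class II (16.2% of the 117 in that class) and 4 class I (7.27% of 55).

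The difference was shared by the clusters. All 6 clusters with at least 2 genes had both All gRNA means above both No gRNA means, by 6.18 points in cluster 1, 11.2 in cluster 2, 11.4 in cluster 3, 9.25 in cluster 4, 7.73 in cluster 5 and 8.78 in cluster 7 (exact permutation p = 0.33 in each, also after Benjamini-Hochberg adjustment over the 6). OR2AT4 was the exception, lower in All gRNA by 4.03 points. In cluster 4 the difference was 13.6 points over the 18 genes from OR5D13 to OR8J2 and 12.1 over the 10 from OR5AL1 to OR5AR1, both at high H3K9me3. It was 6.16 over the 7 most heavily marked genes, OR4C46 to OR4C16, and −1.06 over the 3 genes from OR9G1 to OR5G3.

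OR9Q2 had the largest difference among the receptors, at 63.8% and 50.3% with the guides against 29.2% and 19.7% without. Its group means were 32.6 points apart and its gap was 21 points. Its promoter is printed above. OR5M9 followed at 78.3%, 61.2%, 38.7% and 53.5%, a difference of 23.7, and OR5B12 at 39.4%, 46.8%, 18.3% and 21.2%, a difference of 23.3. The groups did not overlap at any of these genes. In the other direction OR10V1 was at 6.36% and 5.94% with the guides against 35.8% and 17.6% without, a difference of −20.6 points. Its start lies 389 bases from that of STX3. OR51F2 was at 4.10%, 1.27%, 17.0% and 13.9%, also without overlap, and OR10Q1 at 20.1%, 14.5%, 19.9% and 34.0%, with overlap. OR4C3 hardly differed, at 68.2%, 63.6%, 62.8% and 61.5%.

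At the other promoters the difference also varied with the level of H3K9me3. It was negative in the strata below 20% and positive in those above, so the receptors were compared with promoters of like level. Among genes with a mean share of 10% to 20%, the difference was 6.51 points at the 41 receptors and −3.06 at the other promoters. Between 20% and 40% it was 8.18 points at 38 receptors and 0.706 at the others, between 40% and 60% 15.4 points at 17 receptors and 6.45, and between 60% and 80% 11.6 points at 30 receptors and 8.77. Between 80% and 100% it was 5.37 points at 5 receptors and 4.21 at the others. In the low strata it was 1.33 points at 15 receptors and −2.27 between 1% and 5%, and 4.56 points at 25 and −3.09 between 5% and 10%. The lowest stratum held 1 receptor, at 1.18 points against −0.273. By GC content, 128 receptors fell in the lowest decile of promoters, where the difference was 7.47 points at the receptors and 1.34 at the others. The 227 receptor genes of other autosomes stood at 27.2%, 27.5%, 24.2% and 23.5%, a difference of 3.46 points (p = 0.33, exact permutation). Of them, 29.1% were higher in All gRNA without overlap and 13.7% lower. The median of their differences was 0.705 points, with 122 genes higher and 86 lower, against a median of 7.55 points at the 172 genes.

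The difference depended on weak peaks. Peaks at q ≤ 0.05 gave means over the receptors of 9.16%, 8.35%, 2.61% and 10.5%, so the groups overlapped and the difference fell to 2.19 points, and q ≤ 0.01 gave 0.178%, 0.462%, 0.102% and 2.87%, a difference of −1.17. Lists cut to the same covered length kept a difference of 6.40 points. At q ≤ 0.05, OR5AS1 (34.5%, 34.7%, 2.57% and 1.39%) and OR8K5 (54.3%, 72.0%, 0% and 27.2%) passed the gap of 25 points, as did 0.225% of all promoters. The longer peaks of the All gRNA libraries, given above, move with the difference, and their part in it was not tested.

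The other genes inside the clusters differed less. The 71 protein-coding genes that lie between the first and last receptor of a cluster had H3K9me3 means of 17.6%, 18.6%, 17.1% and 15.6%, a difference of 1.72 points. They are not free of receptor windows, since 6 of them have receptor symbols ending in P. HBE1 and ENSG00000284732 share the start of a receptor, and TRIM5 and STX3 start 132 and 389 bases from one. In cluster 1, where 47 of the 71 lie, the difference was 1.13 points, and in cluster 4, with 5, it was 7.39 at a level of 61.4% to 70.2%. Those 5 were OR5AK3P (14.1 points), OR5D3P (4.45), ENSG00000284732 at the start of OR5M3 (11.2), TRIM48 (−0.120) and TRIM51 (7.30). The beta-like globin genes, which encode haemoglobin subunits, lie in cluster 1. HBB was at 18%, 18.2%, 5.25% and 19.2%, HBD at 9.54%, 7.47%, 15.3% and 17.7% and HBG1 at 9.92%, 13.4%, 32.6% and 18.5%. HBE1 was at 39.3%, 44.6%, 31.6% and 19.4%, and HBG2 at 39%, 44.4%, 31.4% and 19.1%. The starts used for HBE1 (chr11:5505652) and HBG2 (chr11:5505605) lie far from those of HBB (chr11:5229395) and HBG1 (chr11:5249857). The values of HBE1 and HBG2 therefore describe the region of the OR51B5 start, not the surroundings of HBB, HBD and HBG1. GLYATL1, for a glycine acyltransferase-like protein, was the only one of the 71 called for H3K9me3 (1.41%, where 0.18% of all promoters were called higher). It was at 46.7% and 66.0% with the guides against 20.2% and 16.5% without. For H3K4me3 the only one called was CNTF, the ciliary neurotrophic factor, with 100% and 96.5% in the libraries labelled All gRNA against 0% and 49.9% in the others. That is 1.41% of the 71, below the 1.78% of all promoters called in that direction. With the 2 libraries of contradictory file names exchanged, the groups would overlap at CNTF. The 192 receptor pseudogenes of chromosome 11 stood at 41.9%, 44.5%, 36.8% and 35.8%, above the means of the 172 genes in every library.

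H3K4me3 was scarce at the receptor starts. The mean share was 13.7%, 13.7%, 13.6% and 12.7%, against 68.8%, 72.5%, 65.9% and 74.3% over all promoters. It was also low at the 227 receptor genes of other autosomes, with 11.5%, 19.3%, 13.6% and 18.1% and a median of 0 in each library. For the 172 genes the median was 0 in each library as well, with 115, 111, 109 and 121 of them at 0, and 51 had no H3K4me3 peak in the window in any library. Only 11 receptors (6.40%) had a peak in all 4 libraries, against 72.3% of all promoters. These shares were poorly shared between libraries, with r of 0.104 to 0.350 across the receptors and 0.650 to 0.753 across all promoters. The libraries also differed in strength whatever the label, since peaks at q ≤ 0.05 covered 31.3%, 10.8%, 8.82% and 50.5% of all promoter windows on average. The 43 receptors with at least 50% H3K9me3 had H3K4me3 means of 8.50%, 7.12%, 5.20% and 10.4%, and the other 129 had 15.5%, 15.9%, 16.4% and 13.4%.

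A peak at q ≤ 0.05 lay in the window of 2 receptors only, against 54.8% of all promoters. OR52N2 had one in 3 libraries, with 45.3% and 76.4% of its window covered in both libraries labelled All gRNA and 98.0% in replicate 2 of those labelled No gRNA. Its strongest peak in each of these had a fold enrichment of 4.57, 3.51 and 3.09 and a q of 2.28e-05, 0.00422 and 0.00927. The remaining library held a weak peak there, with 18.5% covered at q = 0.571. Its start, chr11:5808924, lies inside the TRIM5 gene and 11412 bases upstream of its own coding sequence. The promoter printed above has more CpG than those of the other receptors, yet its 9 are fewer than the median of 17 over all promoters. The second was OR10S1, covered at 100%, 51.2%, 100% and 63.3%, with q of 0.530, 0.546, 0.0469 and 0.379. OR51Q1 had the highest mean of all receptors, at 92.9%, 91.5%, 38.6% and 100%, with no peak below q = 0.0666. OR51B5, at 31.8%, 30.0%, 50.03% and 100%, has the same annotated start as HBE1, so its values are those of HBE1 as well. In all, 5 receptors start within 1 kb of the start of another protein-coding gene.

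Between the labelled groups the mean H3K4me3 of the receptors was nearly the same. It was 13.7% ± 0.0464 under the label All gRNA and 13.1% ± 0.658 under No gRNA (SD, n = 2, difference 0.576 points, exact permutation p = 0.33), and the direction turned with a window of ± 2 kb (−0.519). With only the 2 libraries whose file names give the labelled condition, the values were 13.7% and 12.7%. The call of 25 points was passed by 6 receptors with All gRNA higher (3.49%, where 1.78% of all promoters were called) and by 3 with All gRNA lower (1.74%, where 2.21% were). None of these 9 had a peak at q ≤ 0.05. OR8D1 had the largest gap, with 57.6% and 77.2% against 0% and 0%. OR9Q2 followed with 42.9% and 52.5%, OR4X2 with 36.7% and 58.6%, and OR51G1 with 25.7% and 70.4%, each against 0% in both libraries labelled No gRNA. OR2AT4 had 100% and 44.7% against 0% and 16.3%, and OR6M1 56.6% and 62.5% against 20.5% and 0%. The 3 lower genes were at 0% under the label All gRNA, while the other pair of libraries had 34.4% and 31.3% at OR5B21, 42.9% and 27.3% at OR5A2 and 38.9% and 26.1% at OR4C3.

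The file names bear on each of these 9 genes, since every comparison of the groups uses the 2 libraries with contradictory names. Between the remaining 2 libraries alone, 28 receptors (16.3%, against 7.53% of all promoters) were higher by at least 25 points in the one labelled All gRNA and 24 (14.0%, against 16.1%) were lower, a count without replicates. With the 2 contradictory libraries exchanged between the groups as their file names have it, H3K4me3 at ZEB1 would be 0% in both All gRNA libraries, and 100% in both of the others. The study reports that the guides removed nearly all H3K4me3 from the ZEB1 promoter. Of the 2 groupings, only that by file name shows such a loss. After the exchange none of the 9 receptors would be called, OR8D1 for instance having 57.6% and 0% against 77.2% and 0%. Under that exchange 5 receptors would be higher (2.91%, against 1.13% of all promoters) and 4 lower (2.33%, against 4.24%), with OR10S1 among the higher and OR52N2 among the lower. The mean difference over the 172 genes would be 0.498 points (p = 0.67, exact permutation). Which genes are called for H3K4me3 therefore depends on the labels, and neither set of calls is firm. OR51E1, a receptor also described in the prostate, shows how the libraries split without regard to the labels. Its share was 0% in replicate 1 of those labelled All gRNA, and 73.7%, 82.7% and 100% in the other 3 libraries. Large differences of means without a call were also seen at OR51I2 (88.4%, 18.2%, 0% and 0%), OR4A16 (0%, 0%, 18.1% and 82.6%) and OR4B1 (0%, 0%, 100% and 0%).

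A list of 24 genes of olfactory transduction and of receptor regulation was measured in the same way. Its H3K9me3 medians were 11.3%, 10.3%, 10.8% and 12.9%, above those of all promoters and below those of the receptors in every library. Its means were 17.7%, 18.8%, 17.6% and 19.4%, a difference of −0.183 points between the groups (p = 1, exact permutation), with none called. OMP, the marker protein of mature olfactory neurons, was at 5.78%, 10.5%, 5.06% and 11.3% for H3K9me3, and its H3K4me3 was 0% in 3 libraries and 17.5% in replicate 2 of those labelled No gRNA. LHX2, a homeodomain factor of those neurons, had H3K4me3 of 0%, 42.2%, 28.1% and 100%. ADCY3, the adenylyl cyclase of the cilia, was covered by H3K4me3 at 100% in every library. GNAL, the stimulatory G protein subunit, and GNG13, a gamma subunit, were called higher in the libraries labelled All gRNA, at 63.3% and 100% against 0% and 35%, and at 100% and 100% against 0% and 63.0%. GNAL and GNG13 are 2 of the 24 (8.33%), read beside the 1.78% of all promoters called in that direction, and with the same exchange of libraries their groups would overlap.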

How the data were processed

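Peak lists of 8 native ChIP-seq libraries of SUM159 cells were analysed, with groups and replicate numbers from the labels. The labels call the replicates biological, and p-values measure the spread between these libraries only. The submitters' processing notes name bcl2fastq 2.17, Trimmomatic 0.33, Bowtie 1.1.2, MACS2 2.1.0 and hg38, while the methods of the study name fastp, bowtie2, removal of duplicates and of listed artefact regions, and broad peaks called by MACS2. Which of them made the files is not settled. The authors called peaks in each library separately. The deposited lists hold, per peak, an integer score, the ratio of signal to background as a fold enrichment, and the p-value and q-value on a −log10 scale, which served to filter or describe peaks within a list. The weakest peaks had a p of about 0.1, so most of the covered length is weak signal.

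All deposited peaks on chromosomes 1 to 22 and X were merged within a library, and the covered share of each window was computed for 19962 GENCODE release 44 genes, with 1 start per gene. Library means were compared by exact permutation, two-sided. A call was a gap of 25 points between the groups. It was used in place of a test per gene, since an exact permutation of 2 libraries against 2 cannot give a p below 0.33, and it carries no p. The script was tested on simulated data. Named genes were OR4C3, called genes, the 3 largest differences each way per mark, cluster extremes, genes with H3K4me3 at q ≤ 0.05 in at least 2 libraries, the beta-like globin genes, and OMP, GNAL, ADCY3, LHX2 and called genes of the olfactory list. The remaining named genes were chosen after their values were seen. The members and lists were chosen with earlier results of these data known. Analyses used Python 3.11.15, numpy 2.4.6, pandas 2.3.3 and matplotlib 3.10.9.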

Additional observations from a re-analysis of the deposited data

How the results depend on the processing

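The 9 results were recomputed under alternative settings, which gave 111 values. Of these, 61 stayed close to the main value, 46 moved and 4 changed sign. The H3K9me3 difference at the receptors (7.85 points) was 2.19 at q ≤ 0.05, −1.17 at q ≤ 0.01, 6.40 at equal covered length, 7.02 with ± 5 kb, 6.88 over gene bodies and 8.86 after subtracting the mean over all promoters of each library. It was 7.23 to 8.47 when 1 library was left out. The count of clusters with All gRNA higher without overlap (6) was 1 at q ≤ 0.05, 0 at q ≤ 0.01 and 10 with clusters split at 500 kb. The excess of the receptors' median H3K9me3 over all promoters (15 points) was 0 at both q thresholds, where both medians were 0, and 23.8 over gene bodies. The H3K9me3 calls (0 higher, 0 lower) became 2 higher at q ≤ 0.05, and 23 higher and 1 lower with a gap of 10 points. Leaving out 1 library gave 0 to 2 higher (2 without All gRNA replicate 1, All gRNA replicate 2 or No gRNA replicate 1) and 0 to 1 lower (1 without No gRNA replicate 2).

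The H3K4me3 difference (0.576 points) was −0.222 at q ≤ 0.05, 0.0690 at q ≤ 0.01, 3.38 at equal covered length, 1.30 with ± 500 bases, −0.519 with ± 2 kb, −0.193 around the coding start, 0.00888 after subtracting the mean of all promoters, 1.07 in the 2 libraries with matching file names and 0.498 with the other 2 exchanged. It was 0.111 without replicate 2 of those labelled No gRNA and up to 1.04 without the others. The 6 higher and 3 lower H3K4me3 calls became 0 and 0 at either q threshold, 1 and 0 with a gap of 50 points, 13 and 6 with a gap of 10, 28 and 24 in the 2 libraries with matching names, and 5 and 4, none of them among the first 9, with the other 2 exchanged. The lower calls were 0 at equal covered length and 1 with ± 500 bases. Leaving out 1 library gave 6 to 22 higher and 3 to 19 lower, with 22 higher without replicate 2 labelled All gRNA, 18 higher without replicate 1 of that label, 11 higher and 19 lower without replicate 2 labelled No gRNA, and 18 lower without replicate 1 of that label. The deficit of the receptors' median H3K4me3 against all promoters (−97.0 points) was −17.4 at q ≤ 0.05, 0 at q ≤ 0.01, −74.5 with ± 2 kb and −56.9 for means. The cause of these shifts was not tested, beyond fewer peaks at stricter thresholds and fewer libraries when 1 is left out.

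Replicate numbers were not shown to pair the libraries, since the deviations of same-numbered libraries from their group means correlated at 0.026 for H3K9me3 and 0.015 for H3K4me3. With the replicate block, calls required both same-numbered differences to exceed 25 points, which gave 1 receptor higher for H3K9me3, and 7 higher and 4 lower for H3K4me3. The coding start, the subtraction of all promoters and the settings by file name were added after the data were seen. Peak lists without read counts leave the depth, and so the smallest detectable change, unknown.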
